A study of Mus musculus with 6 samples.

Results

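The 8 genes described here lie around Mir142 on mouse chromosome 11, the microRNA gene that was deleted in the regulatory T (Treg) cells of the KO mice. They were chosen among the neighbours of Mir142 by symbol in a count matrix of 24421 genes, with earlier results of these data known. The list holds Mir142b, Bzrap1, Rnf43, 1110028F11Rik, Supt4a, Mtmr4, Mks1 and Sept4. All 8 are in the matrix. The nearby genes Mpo, Lpo, Hsf5 and Epx were not put on this list, though they lie nearer to Mir142 than Mtmr4 and Sept4 do. CD4+YFP+ Treg cells came from spleens of female C57BL/6 mice of 8 to 11 weeks, 3 of the genotype Foxp3Cre (WT) and 3 of the genotype Foxp3Cre miR-142fl/fl (KO), and each mouse gave 1 RNA-seq library. In both genotypes the mouse's own Foxp3 promoter drives a Cre recombinase tagged with YFP, a yellow fluorescent protein. The groups therefore differ in the floxed Mir142 alleles and their loss from cells that have expressed Foxp3. The KO mice are known to develop systemic autoimmune disease, and in these libraries the direct consequences of the deletion cannot be told apart from those of the diseased animal around the cells. The WT libraries held 15493795, 24042994 and 17779518 counts (replicates 1, 2 and 3), and the KO libraries held 18601425, 13883069 and 14822989.

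Levels are given as CPM, counts per 1000000 on library sizes normalized with the TMM method, and 3 counts corresponded to between 0.123 and 0.227 CPM depending on the library. The Treg label was checked against 7 genes of Treg and CD4 T cells, all of which had counts in every library. Foxp3, the transcription factor that defines Treg cells, had 536, 595 and 566 CPM in WT replicates 1, 2 and 3 and 642, 749 and 677 CPM in KO replicates 1, 2 and 3. Cd4 was lower in KO, with 1043, 1015 and 1005 CPM in WT and 833, 867 and 926 CPM in KO. Cd3e was lower too, with 678, 733 and 626 CPM in WT and 589.5, 594 and 594 CPM in KO. Foxp3, Cd4 and Cd3e were not called in the test of KO against WT described below. Ctla4 varied within WT, with 315, 629 and 1158 CPM there and 842, 1103 and 673 CPM in KO. KO replicate 1 stood apart from the other libraries. Summed over 13 neutrophil genes, the level was 997 CPM there, 11.7 and 29.5 CPM in KO replicates 2 and 3 and at most 5.48 CPM in WT. A list of 12 genes of monocytes and macrophages added up to 2468 CPM in the same library, 45.8 and 13.3 CPM in KO replicates 2 and 3 and no more than 12.8 CPM in WT. A list of 8 B cell genes added up to 290.2 CPM in KO replicate 1, 9.09 and 13.1 CPM in KO replicates 2 and 3 and no more than 41.3 CPM in WT.

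MicroRNAs are short RNAs cut from a hairpin in a longer primary transcript, and they pair through their seed with messenger RNAs, which lowers the stability and the translation of those messengers. Mir142 is made in cells of the blood lineages, T cells included, and both arms of its hairpin give a mature microRNA. Deleting a microRNA gene also removes or alters the stretch of chromosome that carries it, and genes on either side may share regulatory sequence with it, so the neighbours of a deleted locus are commonly read beside the intended target.

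The sequences that the deletion concerns are shown here because Mir142b, the gene of the matrix that overlaps the target, lies on the opposite strand of the same bases. The extent of the floxed interval is not given in the sources used here, so whether it takes in all of Mir142b is not known. All are RefSeq entries of GRCm38.p6, 5′ to 3′. In the mature microRNAs, capitals mark the seed, bases 2 to 8. In the hairpin of Mir142 (chr11:87756864-87756927, plus strand), capitals mark both mature arms.
mmu-miR-142a-5p: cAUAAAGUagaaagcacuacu
mmu-miR-142a-3p: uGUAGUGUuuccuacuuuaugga
mmu-miR-142b: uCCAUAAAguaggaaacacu
Mir142 hairpin: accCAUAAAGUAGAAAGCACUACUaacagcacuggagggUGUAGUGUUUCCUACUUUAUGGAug
The 3 seeds differ from each other. All 20 bases of mmu-miR-142b (chr11:87756906-87756925, minus strand) are the reverse complement of mmu-miR-142a-3p from its base 4 to its last base.

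In the GENCODE annotation of GRCm38, Mir142b covers 115 bases (chromosome 11, 87756841 to 87756955, minus strand), and Mir142 lies wholly within it on the plus strand. Both lie in the intron (87755614 to 87757038) of Mir142hg, the annotated host transcript on the plus strand, which was not analysed here. The other 7 genes of the list are all on the plus strand, the strand of Mir142. Upstream lie Supt4a (87737552 to 87743623, 13.2 kb away), Rnf43 (87662722 to 87735539, 21.3 kb), 1110028F11Rik (87701396 to 87705331, 51.5 kb), Mtmr4 (87592162 to 87616302, 140.6 kb) and Sept4 (87568903 to 87590539, 166 kb). Downstream lie Bzrap1, named Tspoap1 in GENCODE (87760541 to 87785928, 3.61 kb), and Mks1 (87853215 to 87863803, 96.3 kb). RefSeq starts Bzrap1 nearer to Mir142, at 87758194, which leaves 1.27 kb between them.

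**Figure D1:**
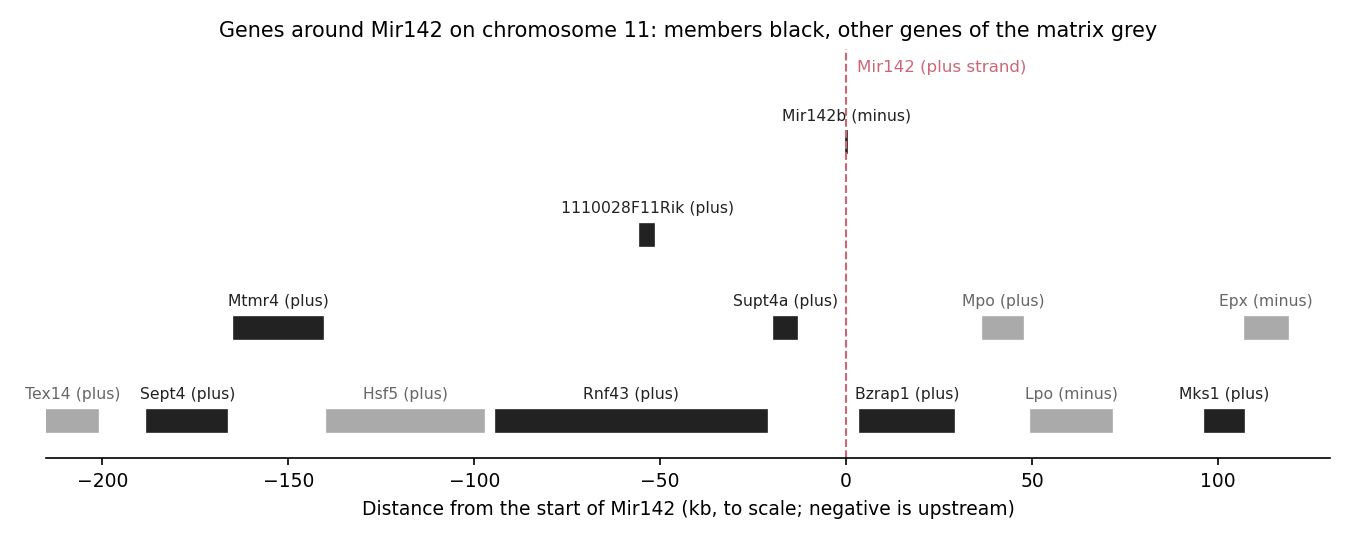
Map of the genes around Mir142 to scale, with the distance from the start of Mir142 in kb on the horizontal axis, the 8 genes of the list in black and other genes of the matrix in grey, and the strand beside each name. Bzrap1 is the nearest gene downstream and Supt4a the nearest upstream, and 1110028F11Rik lies inside the span of Rnf43.

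KO was compared with WT by the quasi-likelihood F test of edgeR (QLF) in all genes that exceeded 1 CPM in 3 or more libraries, and a gene was called at an FDR, the Benjamini-Hochberg adjusted p over all genes tested, under 0.05. Of 11658 genes tested, 2197 (18.8%) were called, 1350 (11.6%) higher and 847 (7.27%) lower in KO. When libraries were scaled by their size alone, 1064 were higher and 1201 lower. Of the 8 flanking genes 7 passed the filter and 5 were called, with Bzrap1 higher and Mir142b, Rnf43, 1110028F11Rik and Mtmr4 lower in KO. Supt4a and Mks1 were tested and not called, and Sept4 was below the filter. Mir142b and 1110028F11Rik passed the filter through the WT libraries alone, with no KO library over 1 CPM, so these 2 had to differ between the groups to be tested. In all 7 genes tested the 3 KO libraries did not overlap the 3 WT libraries, which was also the case for 4782 (41.0%) of all genes tested. With 3 mice against 3, an exact permutation test cannot go below p = 0.1, and the calls of single genes depend on the fitted model. The median log2 fold change of the 7 was -0.42, against 0.02 over all genes tested. That median includes Mir142b and 1110028F11Rik, which had to differ to be tested. The list was also made with earlier results known, so the median is a description only.

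Leaving out WT libraries changed the count more than leaving out KO libraries. Without WT replicate 1, 2 or 3, the flanking genes called numbered 3 each time, and the genes called in all numbered 1090, 733 and 821. At an FDR under 0.01, 3 flanking genes were called, Mir142b, Bzrap1 and Rnf43, among 686 genes in all.

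**Figure D2:**
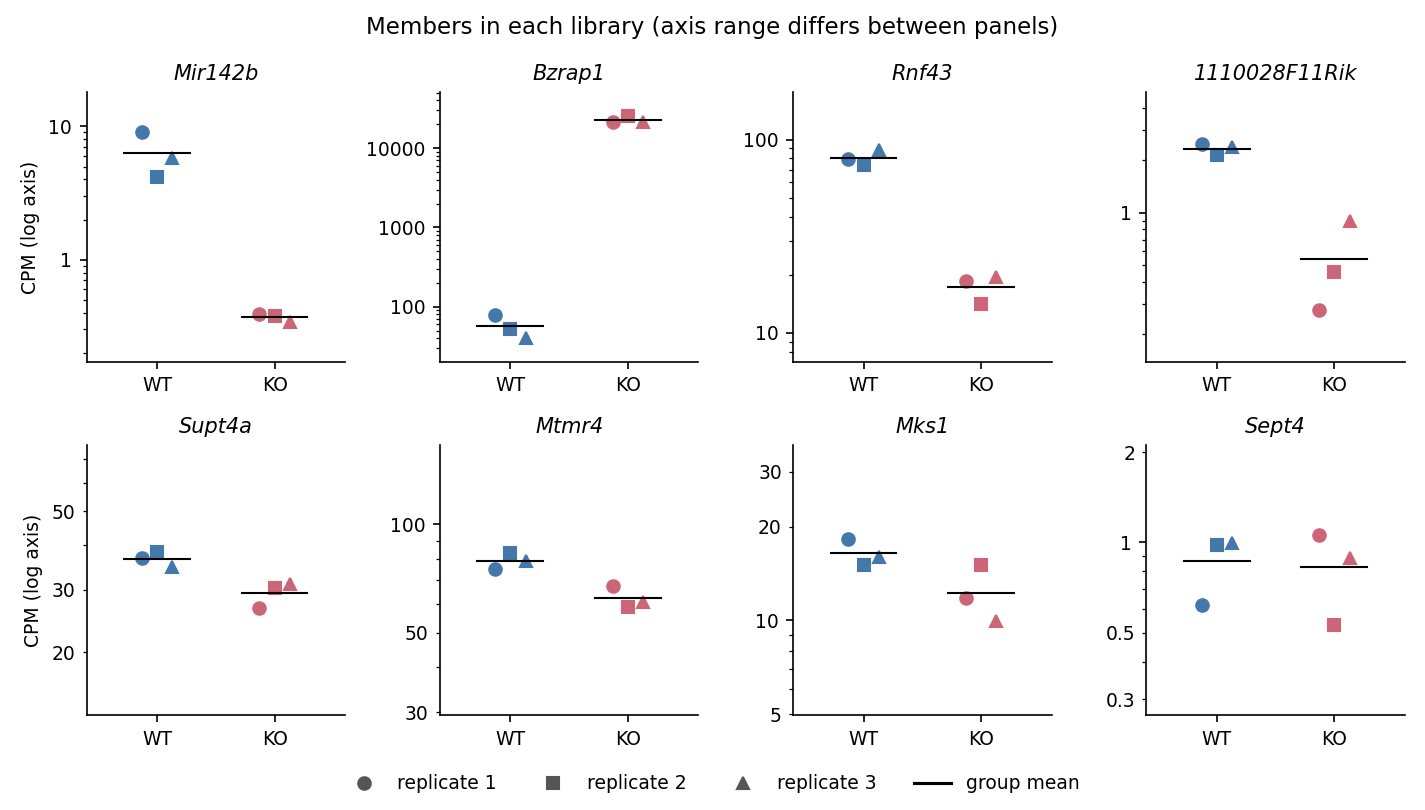
CPM of each of the 8 flanking genes in every library on a log axis whose range differs between panels, with WT in blue, KO in red, a symbol for each replicate number and a black line at the group mean. Bzrap1 is at 21338 CPM or more in every KO library and at 79.8 CPM or less in every WT library, while WT and KO libraries overlap in Sept4.

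The targeted gene itself, Mir142, had 0 counts in all 6 libraries. All of its 64 bases lie within Mir142b and strand was not used in counting, so this 0 tells nothing of its level and does not check the labels. Mir142b had 147, 101 and 105 counts in WT replicates 1, 2 and 3, or 9.05, 4.14 and 5.81 CPM. In KO replicates 1, 2 and 3 it had 7, 5 and 5 counts, or 0.389, 0.379 and 0.342 CPM. Every KO library was below every WT library, with the KO libraries close to each other and WT replicate 1 above the other WT libraries. Whether this checks the labels depends on Mir142b lying in the floxed interval, which is not known. Mir142b also passed the filter through the WT libraries alone. The KO mean was 5.84% of the WT mean, a log2 fold change of -4.07 (95% CI -4.98 to -3.15, FDR = 0.00132 in edgeR's QLF test), the fifth most negative among the genes tested. The authors counted reads without regard to strand, so that reads of Mir142b, of the Mir142 precursor and of the unspliced host transcript cannot be told apart in these counts. Nor can bulk RNA tell a lower level in every cell from fewer cells that hold the transcript. The direction and the call held in each of the 17 other settings tried, with log2 fold changes from -4.30 without WT replicate 2 to -3.73 without WT replicate 1.

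Bzrap1 encodes a large adaptor protein, also called RIM-BP1 or TSPOAP1, that is best known at nerve terminals, where proteins of its family link calcium channels to vesicle release. It had 1295, 1292 and 729 counts in WT replicates 1, 2 and 3 and 384428, 337391 and 314857 counts in KO replicates 1, 2 and 3. On the CPM scale these were 79.8, 53.0 and 40.3 in WT and 21338, 25543 and 21546 in KO. The KO libraries lay within 1.20-fold of each other and the WT libraries within 1.98-fold, and the lowest KO library was far above the highest WT library. In the fit the log2 fold change was 8.63, or 396-fold (95% CI of the log2 value 7.83 to 9.42, FDR = 0.00011), the smallest p of all genes tested and the fifth highest fold change. No setting moved it outside 8.43 to 8.92.

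By raw count Bzrap1 ranked 3066, 4320 and 5144 among all genes in WT replicates 1, 2 and 3 and first in every KO library. It took 2.07% (95% Wilson interval 2.06 to 2.07) of all counts in KO replicate 1, 2.43% (2.42 to 2.44) in KO replicate 2 and 2.12% (2.12 to 2.13) in KO replicate 3, intervals that cover counting error only. Its count was 3.09, 3.26 and 4.27 times that of the next gene in KO replicates 1, 2 and 3, which was Rn45s in the first 2 and H2-K1 in KO replicate 3. In WT it took between 0.0041% and 0.00836% of counts. Among the counts of the 8 flanking genes together, Bzrap1 made up between 15.1% and 26.5% in WT and between 99.4% and 99.5% in KO. A gene of this size in 1 group bears on the scaling of all others. With Bzrap1 left out before library sizes and TMM factors were computed, its log2 fold change was 8.60, 5 flanking genes were called as before, and 1250 genes in all were called higher and 936 lower.

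Rnf43 encodes a transmembrane E3 ubiquitin ligase that removes Frizzled receptors from the cell surface and so limits Wnt signaling, and it is itself a Wnt target gene. It had 79.0, 73.5 and 88.1 CPM in WT replicates 1, 2 and 3 and 18.6, 14.2 and 19.4 CPM in KO replicates 1, 2 and 3. The groups were far apart compared with the spread within either, with 4668 counts behind the WT values and 805 behind the KO values. The fitted log2 fold change was -2.20 (95% CI -2.54 to -1.86, FDR = 0.000527), or 4.61-fold lower in KO, and it stayed between -2.29 and -2.08 in all other settings.

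1110028F11Rik is a noncoding RNA that GENCODE places on the strand of Rnf43 within an intron (87700124 to 87718377) left between the merged exons of its 9 transcripts, with 0 exon bases shared. It had 40, 52 and 43 counts in WT replicates 1, 2 and 3 and 5, 6 and 13 counts in KO replicates 1, 2 and 3, or 2.46, 2.13 and 2.38 CPM against 0.278, 0.454 and 0.89 CPM. WT libraries were close to each other, and the KO libraries spread 3.21-fold, with KO replicate 3 the highest. A log2 fold change of -2.11 (95% CI -3.08 to -1.14, FDR = 0.0146) was fitted. The call was lost in each fit that left out a WT library, with FDR of 0.0506, 0.0566 and 0.0556 without WT replicates 1, 2 and 3.

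The fold changes of Rnf43 and of the noncoding RNA within it were similar in size. Per 100 counts of Rnf43, 1110028F11Rik had 3.12, 2.90 and 2.70 counts in WT replicates 1, 2 and 3, against 1.49, 3.21 and 4.59 in KO replicates 1, 2 and 3. The KO libraries lay on both sides of the WT libraries, and the means were 2.91 ± 0.209 in WT and 3.10 ± 1.55 in KO (SD, n = 3). The KO ratios rest on 5 to 13 counts per library, and what size of difference could have been seen was not tested. RefSeq draws the pair closer together than GENCODE does. There the noncoding RNA starts at 87699524, and a second start of Rnf43, at 87699897, falls inside it, so reads of the 2 genes may not be fully separated by an annotation of that kind, and the annotation behind the counts is not given in the sources used here.

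The 300 bases around this inner start of Rnf43 are shown because it is where the 2 annotations meet (RefSeq, GRCm38.p6, chr11:87699647-87699946, plus strand), with the 50 bases from the start site onward in capitals.
Rnf43 inner start: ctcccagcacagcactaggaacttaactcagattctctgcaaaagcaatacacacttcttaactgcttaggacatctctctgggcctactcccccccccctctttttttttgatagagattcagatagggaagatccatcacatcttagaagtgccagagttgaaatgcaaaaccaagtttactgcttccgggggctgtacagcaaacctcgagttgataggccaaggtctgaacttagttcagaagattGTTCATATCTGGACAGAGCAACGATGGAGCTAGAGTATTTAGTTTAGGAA
RefSeq windows of this kind matched 4 of the 8 genes, Rnf43, Supt4a, Mks1 and Sept4. The motif TATAAA occurs on either strand in 13.6% of all 32851 windows of this length, and the motif CCAAT in 37.4%. The motif CTTTGAT, a form of the site that TCF and LEF factors of the Wnt pathway bind, occurs in 3.73%. None of these 3 was found in this window or in that of the outer Rnf43 start.

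Supt4a, the nearest upstream gene, encodes the small subunit of the elongation factor DSIF, which binds RNA polymerase II. Its levels were 36.9, 38.3 and 34.9 CPM in WT replicates 1, 2 and 3 and 26.6, 30.3 and 31.1 CPM in KO replicates 1, 2 and 3. Every KO library was below every WT library by a small margin. The log2 fold change of -0.32 (95% CI -0.57 to -0.08) had an FDR of 0.0705 in the QLF test, and its FDR over the other settings ran from 0.0396 to 0.234. It was called under library size alone (FDR = 0.0396) and under DESeq2 (FDR = 0.0481).

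Mtmr4 encodes a myotubularin, a phosphatase that acts on phosphoinositides of endosomes. It had 75.3, 82.9 and 79.2 CPM in WT replicates 1, 2 and 3 and 67.4, 58.9 and 61.0 CPM in KO replicates 1, 2 and 3. The groups did not overlap, and KO replicate 1 was the nearest to WT. With a log2 fold change of -0.34 (95% CI -0.55 to -0.13, FDR = 0.0375), Mtmr4 was 1.27-fold lower in KO. This call was close to the threshold. It was lost without any of WT replicates 1, 2 and 3 (FDR = 0.072, 0.152 and 0.122) and without KO replicate 2 or 3 (FDR = 0.0552 and 0.0937). It was also lost with edgeR's likelihood ratio and exact tests (FDR = 0.0595 and 0.0627) and with a replicate block (FDR = 0.0913).

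Mks1 encodes a protein of the transition zone at the base of the primary cilium. It had 18.2, 15.1 and 15.9 CPM in WT replicates 1, 2 and 3 and 11.8, 15.1 and 9.92 CPM in KO replicates 1, 2 and 3. KO replicate 2 lay just below the lowest WT library, and the log2 fold change of -0.42 (95% CI -0.85 to 0.01) was not called (FDR = 0.154). It reached -0.59 with an FDR of 0.0455 without KO replicate 2, and its FDR over the other settings ran from 0.0455 to 0.325.

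Sept4 encodes a septin, a filament-forming GTP-binding protein. It had 10, 24 and 18 counts in WT replicates 1, 2 and 3, against 19, 7 and 13 in KO replicates 1, 2 and 3, and only 2 of the 6 libraries exceeded 1 CPM on the library sizes without TMM factors that the filter used. In CPM the groups overlapped, with KO replicate 1 highest (1.055 CPM) and KO replicate 2 lowest (0.53 CPM) of all 6 libraries. A fit without the CPM filter gave Sept4 a log2 fold change of -0.09 (95% CI -1.08 to 0.90, FDR = 0.913 in the QLF test), an interval that holds about a doubling in either direction.

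**Figure D3:**
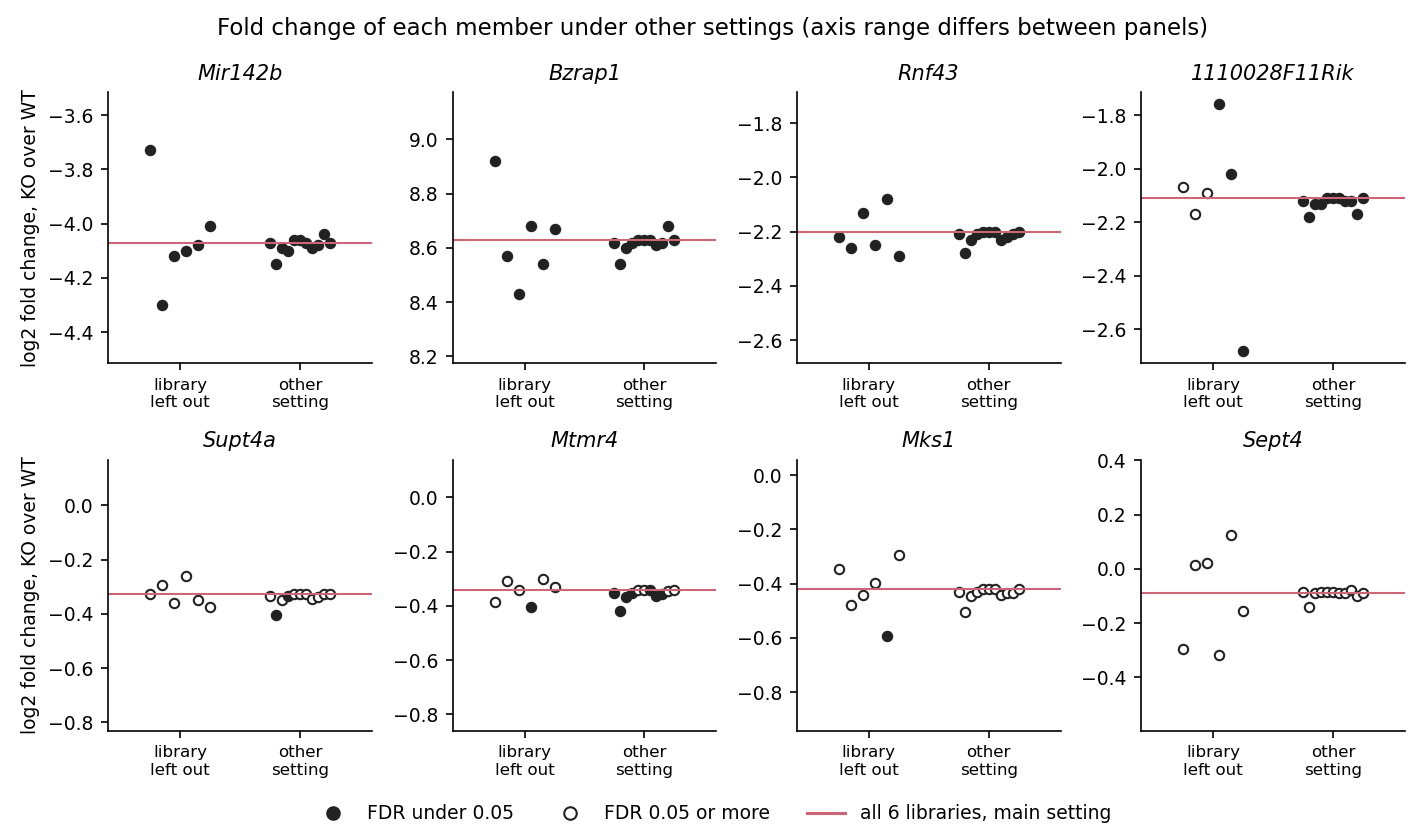
Log2 fold change of each flanking gene with 1 library left out (left column of points) and under 11 other settings (right column), with the value from all 6 libraries as a red line and filled points for an FDR under 0.05. The axis range differs between panels, and Mir142b, Bzrap1 and Rnf43 are called at every point.

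Levels of different genes were compared per kilobase of merged exons (RPKM), with no test. In WT the order of mean RPKM was Mir142b (55.1 ± 21.7, SD, n = 3), Supt4a (39.0 ± 1.85), Mtmr4 (12.7 ± 0.614), Rnf43 (12.2 ± 1.13), Bzrap1 (6.07 ± 2.12), Mks1 (4.06 ± 0.402), 1110028F11Rik (2.38 ± 0.177) and Sept4 (0.243 ± 0.0606). Mtmr4 and Rnf43 did not differ beyond their spread, nor did Mir142b and Supt4a, and the Bzrap1 libraries overlapped those of Mks1. Mir142b is so short beside reads of 51 bases that its value per length is uncertain. In KO Bzrap1 came first, at 2401 ± 249 RPKM, followed by Supt4a (31.1 ± 2.54), Mtmr4 (10 ± 0.709), Mir142b (3.22 ± 0.212), Mks1 (3.03 ± 0.643), Rnf43 (2.65 ± 0.429), 1110028F11Rik (0.554 ± 0.323) and Sept4 (0.232 ± 0.0753). There the Mks1 libraries overlapped those of Mir142b and those of Rnf43, and the 1110028F11Rik libraries overlapped those of Sept4. The lowest KO value of Mir142b (2.975 RPKM) was just above the highest of Rnf43 (2.953 RPKM). Among the 11578 tested genes with an annotated length, whose median was 7.84 RPKM in WT and 7.99 RPKM in KO, the mean of Bzrap1 ranked 6545 in WT and 2 in KO, where only B2m, a subunit of MHC class I, was higher (3305 RPKM). Rnf43 went from rank 4271 in WT to 8699 in KO.

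**Figure D4:**
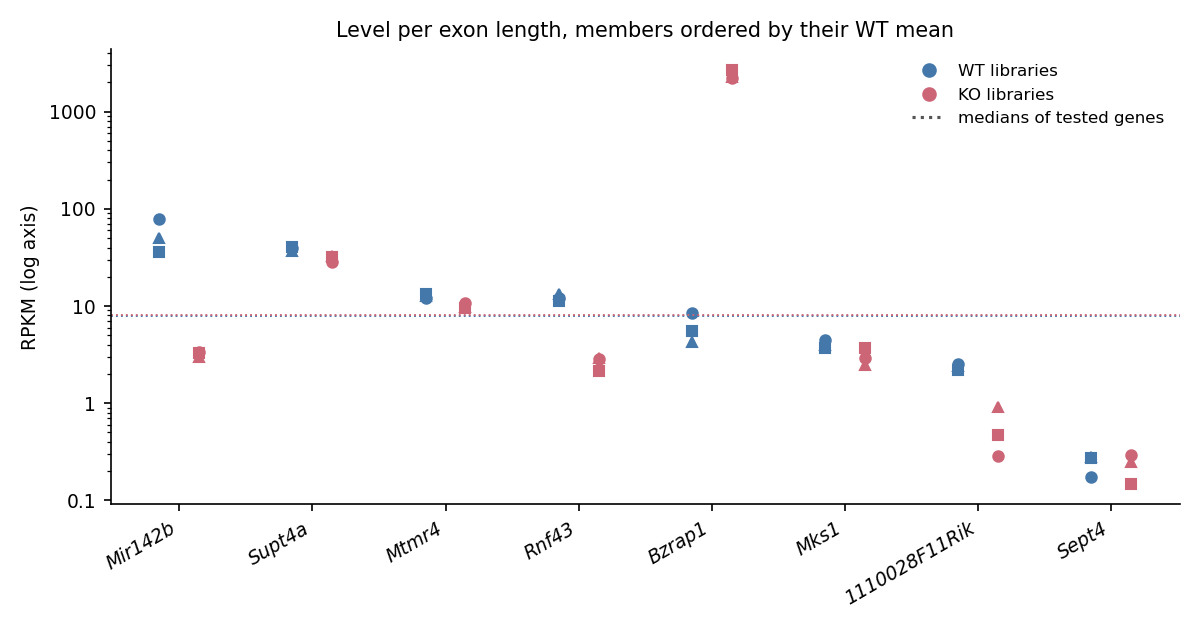
RPKM of the 8 flanking genes in each library on a log axis, ordered by their WT mean, with WT in blue, KO in red, a symbol for each replicate number and dotted lines at the medians of all tested genes. Bzrap1 moves from below these medians in most WT libraries to 2246 RPKM or more in every KO library, and Rnf43 from above to below them.

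Within 1 Mb of Mir142 on either side, 28 other genes of the matrix were found, of which 17 were tested and 4 (23.5%) were called, against 18.8% of all genes tested. They were Cltc (999 kb upstream), Mpo (36.7 kb downstream), Vezf1 (311 kb downstream) and Msi2 (582 kb downstream). Cltc, the clathrin heavy chain, had a log2 fold change of 0.68 (FDR = 0.0116) and Msi2, an RNA-binding protein, of 0.50 (FDR = 0.0278), both higher in KO, and Vezf1, a zinc finger factor, was lower with -0.37 (FDR = 0.0383). Without WT replicate 1, 2 or 3 the number called was 2, 1 and 1. Of the 6 fits without a library, Vezf1 was called in 1, Msi2 in 3 and Cltc in 4, and Vezf1 was also not called with a replicate block (FDR = 0.0518). The 4 listed genes with a log2 fold change beyond 1 in size, Mir142b, Bzrap1, Rnf43 and 1110028F11Rik, all lie within 51.5 kb of Mir142. Of these, Mir142b and 1110028F11Rik passed the filter through the WT libraries alone, and the list was made with earlier results known. Whether fold change depends on distance was not tested. Supt4a, which lies nearer than Rnf43 and 1110028F11Rik, had -0.32. Farther away, Prr11 was the only tested gene of the window with a fold change of that size, 1.40, with an FDR of 0.164. That value came mostly from KO replicate 1 (11.7 CPM, against 2.42 and 2.33 CPM in KO replicates 2 and 3) and was 0.18 without it.

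**Figure D5:**
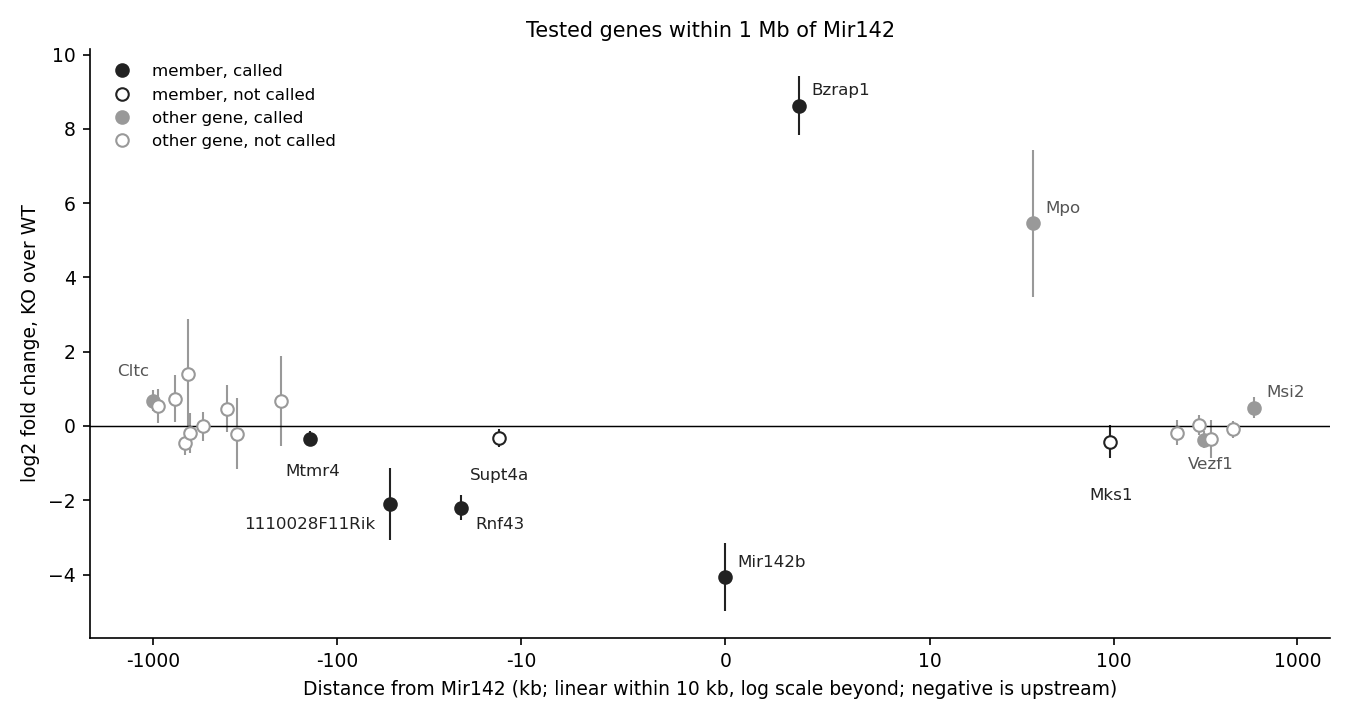
Log2 fold change of KO over WT, with its 95% confidence interval, against the distance from Mir142 in kb (linear within 10 kb and logarithmic beyond) for the tested genes within 1 Mb, with the flanking genes of the list in black, other genes in grey and called genes filled. The nearest gene downstream, Bzrap1, is at 8.63, and upstream the nearest, Supt4a, is at -0.32 and not called, with Rnf43 beyond it at -2.20.

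Mpo, the myeloperoxidase gene of neutrophil granules and the nearest gene beyond Bzrap1, had 13, 10 and 1 counts in WT replicates 1, 2 and 3, against 303, 82 and 470 counts in KO replicates 1, 2 and 3, or 0.801, 0.41 and 0.0553 CPM against 16.8, 6.21 and 32.2 CPM. Its log2 fold change was 5.45 (FDR = 0.00633), and it was called in every fit that left out a library, with values from 4.78 without KO replicate 3 to 6.16 without WT replicate 1, but it passed the filter through the KO libraries alone and so had to differ to be tested. Mpo was highest in KO replicate 3, as were 2 of the 13 neutrophil genes, the granule genes Prtn3 (4.11, 0.53 and 7.19 CPM in KO replicates 1, 2 and 3) and Ctsg (1.89, 0.53 and 5.06 CPM). The other 11 were highest in KO replicate 1, among them the granule gene Elane (7.49, 1.21 and 4.31 CPM). S100a9, the most abundant of the 13 by its mean, had 248, 0 and 1.23 CPM in the same libraries. None of the 13 was at 0 in KO replicate 1, against 5 in KO replicate 2 and 2 in KO replicate 3. How much of Mpo came from other cells was not tested. Lpo, next to Mpo, and Hsf5, between Mtmr4 and Rnf43, had at most 2 and 4 counts in any library, and Tex14, beyond Sept4, was tested and not called (FDR = 0.388).

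KO replicate 1 was set beside the other KO libraries for the flanking genes and for the marker lists. Its CPM over the mean of KO replicates 2 and 3 was 0.906 for Bzrap1, 1.08 for Mir142b, 1.11 for Rnf43, 0.867 for Supt4a, 1.12 for Mtmr4 and 0.946 for Mks1, against 48.5 for the neutrophil sum, 83.6 for the monocyte and macrophage sum and 26.2 for the B cell sum. For 1110028F11Rik it was 0.413 and for Sept4 1.49, both on few counts. What other cells added to the flanking genes was not tested. By their mean over all libraries, Csf1r was the most abundant gene of the monocyte and macrophage list and Cd22 of the B cell list. Csf1r was at 640 CPM in KO replicate 1 and at most 12.6 CPM elsewhere. Cd22 was at 83.0 CPM there and at most 19.8 CPM elsewhere. In WT Cd68 (4.31, 5.25 and 6.97 CPM) was above Csf1r. Cd79b (6.13 and 9.65 CPM) was above Cd22 (0.984 and 1.095 CPM) in KO replicates 2 and 3. In KO replicate 1 no gene of the neutrophil, monocyte and macrophage or B cell list was at 0. Without KO replicate 1 the same 5 flanking genes were called, with log2 fold changes of 8.68 for Bzrap1, -4.10 for Mir142b, -2.25 for Rnf43, -1.76 for 1110028F11Rik and -0.40 for Mtmr4.

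The remaining marker lists moved less. The 4 eosinophil genes summed to 10.1 CPM in KO replicate 1 and between 3.43 and 6.44 CPM elsewhere, most of it Ccr3. The 6 genes of CD8 T and NK cells summed to between 20.3 and 24.3 CPM in WT and to 84.5, 56.7 and 45.9 CPM in KO replicates 1, 2 and 3. By its mean over all 6 libraries their most abundant gene was Eomes, which Treg cells can express. Eomes had 6.34, 4.35 and 6.69 CPM in WT and 39.1, 42.0 and 29.8 CPM in those KO libraries. It was called higher in KO (log2 fold change 2.68, FDR = 0.00088 in edgeR's QLF test). In every WT library Cd8b1 was above Eomes. Cd8a was at 19.0 CPM in KO replicate 1 and at most 1.97 CPM elsewhere, and Gzma at 7.83 CPM there and at most 1.37 CPM elsewhere. Cd8b1 differed little, with 13.8, 11.5 and 13.1 CPM in WT and 17.1, 11.4 and 13.1 CPM in KO. Klrb1c was lower in KO, with 3.94, 3.85 and 2.38 CPM in WT and 1.39, 0.303 and 0.821 CPM in KO (log2 fold change -1.97, FDR = 0.0308), and Ncr1 had at most 2 counts in any library. The 5 erythroid genes summed to 12 CPM in KO replicate 1 and at most 1.82 CPM elsewhere, and the globin genes Hba-a1, Hbb-bs and Hbb-bt were at 0 in all 6 libraries. By its mean over all 6 libraries the most abundant gene of the Treg and CD4 list was Il2ra. It had 799, 744 and 726 CPM in WT and 2258, 2404 and 3073 CPM in KO replicates 1, 2 and 3. In every WT library Ikzf2 (1236.5, 1613.5 and 1296.7 CPM) and Cd4 (1043, 1015 and 1005 CPM) were above Il2ra. Of the 7 genes of this list 2 were called, Il2ra and Tnfrsf18, both higher in KO.

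Among 11634 tested genes outside the neighbourhood, the patterns most like 3 of the flanking genes over the 6 libraries were found by Pearson's r of log2 CPM, given as a description with no test. For Bzrap1 these were Rraga (r = 0.9991), Snd1 (0.9987) and Evi5 (0.9985), which rose by far smaller log2 fold changes of 0.85, 0.66 and 1.95. Within KO none of the 3 had the order of libraries that Bzrap1 had. For Rnf43 they were Slc16a5 (0.999), AI837181 (0.9972) and Igsf23 (0.9972), with -2.28, -0.45 and -1.11. For Mir142b they were Entpd6 (0.9985), Zmat1 (0.9966) and 2310001H17Rik (0.9959), with -0.54, -1.07 and -0.97. All 9 were called in the QLF test and their groups did not overlap, so each r rests largely on the distance between WT and KO. Slc16a5, a monocarboxylate transporter family gene, came closest to Rnf43 in size too, with 7.64, 7.26 and 7.91 CPM in WT and 1.61, 1.29 and 1.78 CPM in KO replicates 1, 2 and 3.

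The seed complements of the 3 mature microRNAs, 7 bases each, were searched in the longest annotated 3′ UTR of the 6 protein-coding genes of the list, which were between 252 bases (Sept4) and 2049 bases (Mtmr4) long. None holds ACACTAC (miR-142a-3p), ACTTTAT (miR-142a-5p) or TTTATGG (miR-142b). Of 10787 tested genes with an annotated 3′ UTR, 7.08%, 15.9% and 12.8% hold them. Other site types were not searched, among them another 7-mer seed of miR-142a-3p that the paper also used. The site that the paper mutated in its Ifngr2 and Hif1a reporters does not hold ACACTAC, so the search would have missed it. Whether the listed genes hold sites of that form was not tested. An absent 7-mer says only that these letters are not in these UTRs.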

How the data were processed

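RNA was sequenced from 6 libraries, 3 WT and 3 KO. The authors aligned reads of 51 bases to mm10 with HISAT and counted them per gene, on either strand, with featureCounts. The deposited values are raw counts, and versions are not given in the sources used here. Of the 24421 genes, 23334 were matched to GENCODE vM21 of GRCm38 by symbol and 676 by synonym.

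The test was edgeR 4.0.16 (TMM, QLF, Benjamini-Hochberg FDR under 0.05) in R 4.3.3, on genes over 1 CPM in 3 or more libraries. The SE of a log2 fold change is its size over the square root of F. Fits without a library kept the same tested genes. Alternatives were RLE factors, library size alone, Bzrap1 left out of the scaling, DESeq2 1.42.0, likelihood ratio, exact and robust QLF tests, no CPM filter, a filter at 0.5 CPM, a replicate block, an FDR under 0.01 and each library left out. The steps were tested on simulated counts.

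The members and lists were chosen with earlier results of these data known. Named genes were the 8 members, Mir142, called genes within 1 Mb and the 2 nearest others on each side. The 3 genes most like Bzrap1, Rnf43 and Mir142b were also named, as was the gene of each marker list with the highest mean over all libraries. Foxp3, the globins and the genes ranked next to Bzrap1 were added. Prr11, further genes of the marker lists and the related families were chosen after their values were seen.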

Additional observations from a re-analysis of the deposited data

How the results depend on the processing

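Of 136 fold changes of the 8 genes under 17 alternatives each, 118 kept their direction and their side of the threshold, and all of those of Mir142b, Bzrap1 and Rnf43 did. The flanking genes called numbered from 3 to 5 without a library, and 3 at an FDR under 0.01. Other genes within 1 Mb called numbered from 1 to 5 without a library, 7 under DESeq2 and 1 at an FDR under 0.01. All genes called ranged from 733 to 2492 without a library and were 686 at an FDR under 0.01. The fits without a library also have less power by construction.

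Mtmr4 was no longer called with the likelihood ratio test (-0.342), the exact test (-0.342), a replicate block (-0.343) or all 3 edgeR tests together (-0.342), an alternative chosen after seeing the data. Supt4a was called under library size alone (-0.403) and DESeq2 (-0.336). The cause was not tested. Without a library, log2 fold changes ranged from -2.68 to -1.76 for 1110028F11Rik, from -0.402 to -0.302 for Mtmr4 and from -0.592 to -0.293 for Mks1. That of Sept4 ranged from -0.317 to 0.124, reversed without WT replicate 2 (0.0141), WT replicate 3 (0.0203) and KO replicate 2 (0.124).

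Replicate numbers are shared between groups, but the deviations of same-numbered libraries correlated at 0.0731, -0.0124 and -0.188, so they were not taken as pairs. The replicate block gave 4 flanking genes, 5 other genes within 1 Mb and 1606 genes in all, and log2 fold changes of 8.68 for Bzrap1, -4.04 for Mir142b and -2.21 for Rnf43. Libraries of a group differed by more than counting noise. Depth limits Mir142b, 1110028F11Rik and Sept4, with 17, 24 and 39 counts over the KO libraries.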

Other observations

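Genes that work with the flanking genes or belong to their families were looked up by name after the values above were known, so their counts are a description. Of 25 genes around Rnf43 in Wnt signaling (its homolog Znrf3, R-spondins, LGR and Frizzled receptors, LRP5 and LRP6, Axin2 and the TCF and LEF factors), 13 were tested and 2 (15.4%) were called, against 18.8% of all genes tested, both Frizzled receptors and both higher in KO, as they were with each of the other 3 scalings and without KO replicate 1. Fzd6 had 3.20, 2.09 and 2.38 CPM in WT replicates 1, 2 and 3 and 19.2, 19.8 and 14.1 CPM in KO replicates 1, 2 and 3, which gave 2.79 on the log2 scale (FDR = 0.000996 in edgeR's QLF test). Fzd10 had at most 0.443 CPM in WT and between 2.19 and 2.83 CPM in KO, and its log2 fold change was 2.77 (FDR = 0.00207). It passed the filter through the KO libraries alone, so it had to differ to be tested. Fzd5, the highest of the Frizzled genes in WT by CPM, had 9.73, 10.6 and 15.3 CPM in WT and 8.16, 10.3 and 8.83 CPM in KO. It went the other way and was not called (log2 fold change -0.38, FDR = 0.249 in the QLF test). Znrf3, the homolog of Rnf43, had 57.1, 60.0 and 76.6 CPM in WT and 51.6, 109.5 and 81.6 CPM in KO, and was not called (FDR = 0.416). Axin2, a common readout of Wnt signaling, was not called either (log2 fold change -0.39, FDR = 0.235). For 5 of the 11 genes not called, the call depended on the setting, in both directions. Of 17 other settings, Tcf7l2 (3.28, FDR = 0.0634) was called higher in 5, Fzd7 (2.22, FDR = 0.0677) in 4 and Znrf3 in 1, while Tcf7 (-0.84, FDR = 0.0686) was called lower in 6 and Lef1 (-0.42, FDR = 0.169) in 1. The values of Tcf7l2 and Fzd7 came mostly from KO replicate 1 (21.9 and 10.4 CPM, against at most 2.50 and 3.18 CPM elsewhere) and were 1.19 and 1.05 without it.

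Of 9 other transition zone genes that act with Mks1, 8 were tested and 4 (50%, against 18.8% of all genes tested) were called, 3 higher and 1 lower in KO, the same with each scaling and without KO replicate 1. Cc2d2a was lower, with 5.79, 5.62 and 7.36 CPM in WT replicates 1, 2 and 3 and 0.666, 0.681 and 0.479 CPM in KO replicates 1, 2 and 3 (log2 fold change -3.34, FDR = 0.00088). B9d1 (2.29), Tmem67 (1.54) and Tctn1 (0.99) were higher. Tctn1 was not called without WT replicate 2 (FDR = 0.0594). Cc2d2a passed the filter through WT alone, and B9d1 and the septin gene Sept10 through KO alone, so these 3 had to differ to be tested. All 13 other myotubularin genes were tested and 5 (38.5%) were called, all higher, from 0.43 for Mtmr6 to 1.34 for Mtmr10, while Mtmr4 was lower. Mtmr6 and Mtmr2 were not called without WT replicate 1 (FDR = 0.0871 and 0.054), 2 (0.086 and 0.0633) or 3 (0.102 and 0.0601). Of 9 septin genes tested of 12, 3 (33.3%) were called, Sept2, Sept8 and Sept10, all higher. Sept10 was not called without WT replicate 2 or 3 (FDR = 0.0718 and 0.0639), nor was Sept2 without WT replicate 3 (0.0577), which left Sept8 alone there. Of 17 other settings, Sept6 (-0.37, FDR = 0.0603) was called lower in 3, while Sept9 (0.29, FDR = 0.0601) was called higher in 2 and Sept5 (1.06, FDR = 0.12) in 1. In the same way B9d2 and the myotubularins Mtmr3 and Mtmr11 were called higher in 2 settings each and Tmem231 in 1. Supt5, the partner of Supt4a in DSIF, had a log2 fold change of -0.04 (FDR = 0.778), and Tspo, the mitochondrial protein after which Bzrap1 is named as a binding partner, of 0.09 (FDR = 0.701). What these families share with the deletion was not tested.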
